A study of Homo sapiens with 4 samples.

Results

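The kinetochore and spindle checkpoint genes described here are 41 genes, chosen by gene symbol from the 23615 genes of the deposited table. They were listed by function, but with earlier results of these data already known. All 41 were found, and all 41 passed the filter on low counts. Their mRNAs were measured in RNA recovered with SIRT7, a nuclear and nucleolar deacylase of the sirtuin family, and in total RNA of the same cells. The SIRT7 RIP group, for RNA immunoprecipitation, holds 2 libraries of RNA pulled down with an anti-Flag gel from HEK293T cells that stably overexpress Flag-tagged SIRT7. The input group holds 2 libraries of total RNA from the same overexpressing cells. HEK293T is a human embryonic kidney line, grown here without a further treatment in the labels. Ribosomal RNA was removed from both kinds of RNA, and the library kit keeps strand. Both groups carry the tagged protein. A pull-down from cells without the tag was not analysed here, and RIP values therefore include any RNA held by the gel alone. Neither the clonal state of the line nor the culture behind each library is stated in the labels. The spread that the p-values rest on is that between 2 libraries of a group, which may be technical.

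The kinetochore is the protein assembly that joins each chromosome to the spindle in mitosis. It is built on nucleosomes that hold CENP-A, a histone H3 variant. An inner network of CENP proteins sits on them and recruits the outer NDC80, MIS12 and KNL1 complexes, of which NDC80 grips the microtubule. Until every kinetochore is attached, the checkpoint kinases and MAD and BUB proteins hold back the anaphase-promoting complex. Proteins of one complex are made from mRNAs of very different length, from the short messages of CENP-W and SPC24 to the very long ones of CENP-E and CENP-F. Many of these genes are expressed mainly around G2 and mitosis. In a cycling culture the number of cells at that stage and the RNA per cell cannot be told apart.

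The libraries held 25655459 and 25998038 fragments on genes in RIP, against 18131596 and 17310755 in input. Kinetochore and checkpoint genes took 0.247% of these fragments in each RIP library, against 0.379% and 0.378% in input. SIRT7 itself was at 43577 ± 534 CPM in RIP and 1165 ± 23.4 CPM in input (SD, n = 2 each). CPM here are taken on library sizes scaled by TMM factors. Of 7 marker genes of the HEK293T line, LIN28B, IGF2BP1, NEFM, NEFL and EYA1 had between 183 and 6905 fragments in a library, SALL4 had 8 to 35 and PAX2 had 8 to 14. Of 12 markers of other cell types 4 passed the count filter. The summed FPKM of all 12 was 4.08 and 5.08 in RIP, against 3.07 and 3.16 in input, and CD3E, MYH6 and INS were at 0 in all 4 libraries. The part of other cells in the results was not tested.

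Many kinetochore genes share a promoter element, the cell cycle genes homology region, which is bound by the MuvB complexes that hold these genes silent outside G2 and mitosis. Its core was searched as TTTGAA or TTCGAA on both strands, the second of which reads the same on either strand. The windows were RefSeq promoters of build GRCh38.p14, from 250 bases before to 50 after the start of the gene. Of the 35 genes with an entry, 19 (54.3%) held the core, against 19.5% of all 27305 genes with an entry. Within 50 bases of the start, 17 (48.6%) held it, against 6.24% of all genes. BUB3, CASC5, CENPH, CENPL, CENPM and TTK had no entry. A match is a description of these letters and not a proven site. Windows of 5 genes whose mRNAs were higher (CENPA, NDC80), not changed past the threshold (CDCA8) and lower (SGOL1, SKA3) in RIP are printed to show the shared core. The choice was made after their values were seen. Each runs 5′ to 3′ along the gene, from 80 bases before to 20 after the start, with the core in capitals.
CENPA, plus strand, chr2:26785976-26786075: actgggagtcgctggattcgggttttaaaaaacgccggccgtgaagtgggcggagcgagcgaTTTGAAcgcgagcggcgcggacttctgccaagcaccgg
NDC80, plus strand, chr18:2571477-2571576: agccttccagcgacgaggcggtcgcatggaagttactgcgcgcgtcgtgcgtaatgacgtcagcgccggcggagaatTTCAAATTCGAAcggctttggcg
CDCA8, plus strand, chr1:37692436-37692535: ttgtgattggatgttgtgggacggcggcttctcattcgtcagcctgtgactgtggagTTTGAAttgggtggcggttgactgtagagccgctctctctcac
SGOL1, minus strand, chr3:20186187-20186286: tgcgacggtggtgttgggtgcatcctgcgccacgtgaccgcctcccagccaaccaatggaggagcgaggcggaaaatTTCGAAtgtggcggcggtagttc
SKA3, minus strand, chr13:21176533-21176632: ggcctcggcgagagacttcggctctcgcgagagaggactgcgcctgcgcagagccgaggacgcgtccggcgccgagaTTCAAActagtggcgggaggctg
The core lies close to the start in all 5 windows, and the NDC80 window holds 2 copies side by side. Genes with the core were found among those that were higher in RIP (7 of 14 with an entry), lower (6 of 10) and past neither side (6 of 11).

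As a group these mRNAs did not move one way in RIP. By edgeR's quasi-likelihood test over all 14555 tested genes, 17 of the 41 were higher in RIP than in input, 13 were lower and 11 passed neither side. Their share of higher calls was 41.5%, beside 38.0% of all tested genes, and their share of lower calls was 31.7%, beside 39.7%. The median log2 fold change was 0.04, beside -0.03 for all tested genes. RIP and input values did not overlap in 34 of the 41 genes, beside 12977 of all 14555 tested genes. A lack of overlap is thus common in these libraries and does not mark a gene out. At least 2-fold higher were CENPM, CENPW, PMF1, CENPB and CENPA (5 genes, beside 17.5% of all tested genes), and at least 2-fold lower were CENPF, CENPE and CASC5 (3 genes, beside 19.1%). Directions are relative to the TMM scale. With library totals in its place the median over all genes moved to -0.76, and 5 of the 41 were higher and 32 lower, beside 17.0% and 65.5% of all tested genes.

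**Figure D1:**
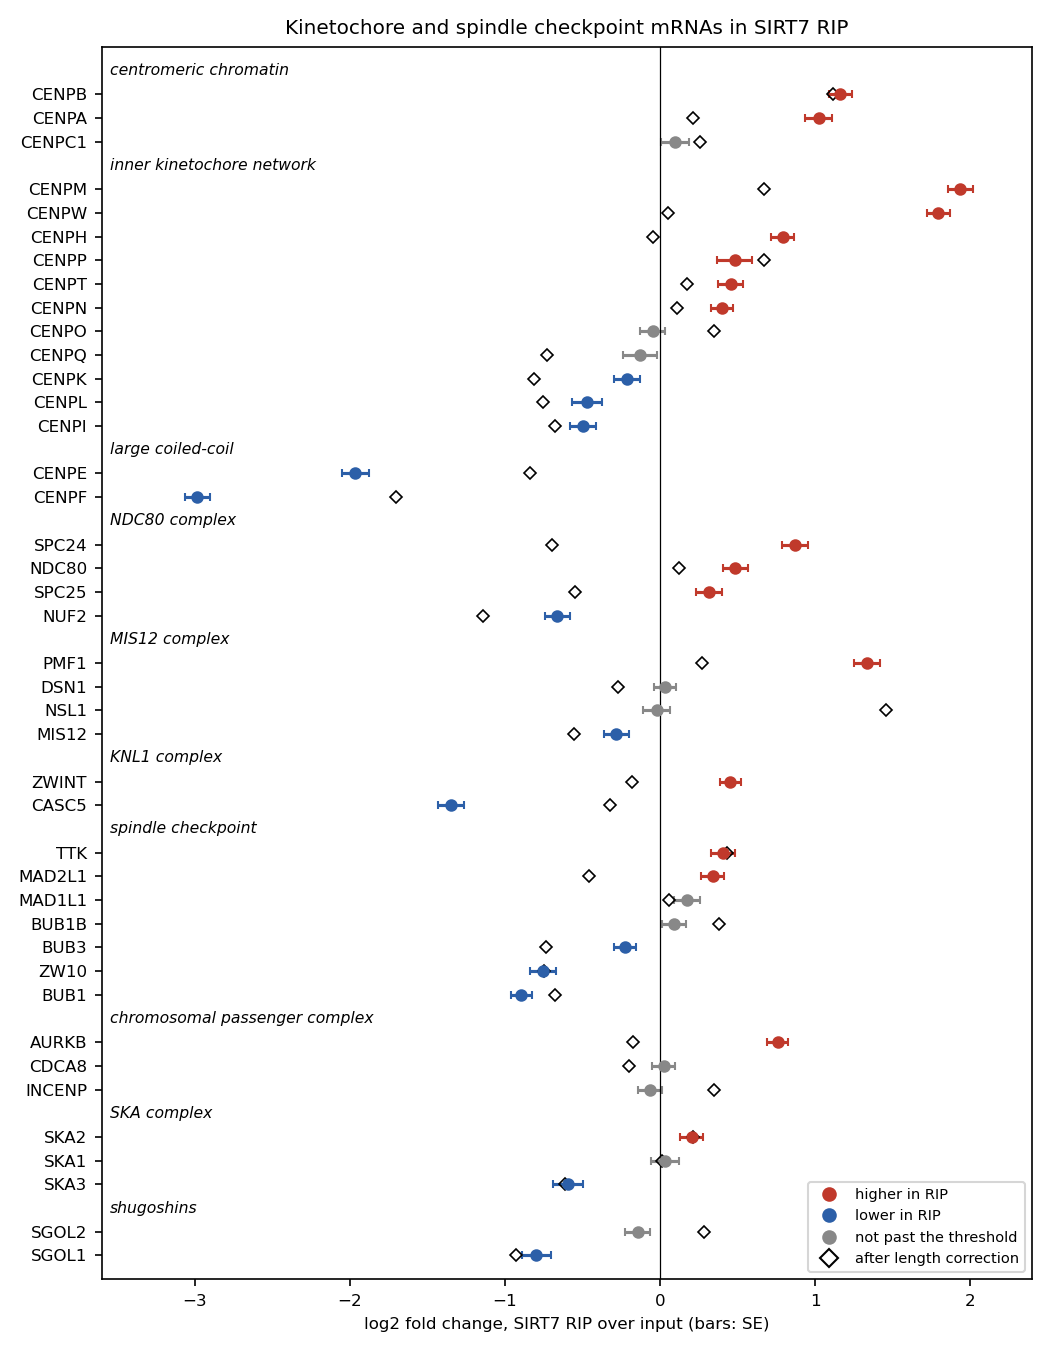
Log2 fold change of each of the 41 genes, SIRT7 RIP over input, grouped by complex; filled points are the edgeR estimates with their SE as bars, coloured by call, and open diamonds are the values after length correction. CENPF (-2.98) and CENPE (-1.96) lie farthest to the left and CENPM (1.94) and CENPW (1.79) farthest to the right, and most complexes hold genes on both sides of 0.

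The mRNAs of the largest proteins, CENP-F and CENP-E, were the lowest of the set in RIP relative to input. CENPF, which codes for a coiled-coil protein of the outer kinetochore and nuclear envelope, had 41.0 and 42.6 CPM in the RIP libraries, against 351 and 310.1 CPM in the input libraries. Its groups lay far apart, with every RIP value below every input value. The log2 fold change was -2.98 (SE 0.083, edgeR adjusted p = 6.302e-13), with means of 41.8 ± 1.12 CPM in RIP and 330.6 ± 29.0 CPM in input (SD, n = 2 each). CENPE, which codes for a kinesin that carries chromosomes to the spindle equator, had 20.1 and 23.2 CPM in RIP, against 83.5 and 85.2 CPM in input. Again the groups did not overlap, and the log2 fold change was -1.96 (SE 0.087, edgeR adjusted p = 1.37e-11).

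The 18 small CENP, MIS12 complex and NDC80 complex genes showed no such drop as a set. Small is a label given here to the protein and not a cut on a measured size, and NSL1 among them has the longest transcript of the 41 genes. CENPB, CENPC1, CENPI and CENPT were labelled as between and left out of both sets. Counting them as small left the log2 fold change of CENPE and CENPF minus the small genes' median at -2.83. Of the 18, 10 were higher in RIP, 4 lower and 4 past neither side. Their log2 fold changes lay between -0.66 and 1.94, with a median of 0.36. All tested genes had 38.0% higher and 39.7% lower calls. A bin of all tested genes with about the median length of the 18 had a median of 0.48. With length taken into account, the 18 genes split into 6 higher and 8 lower calls, beside 34.7% and 35.6% of all tested genes. Their median was then 0.0042. Library totals gave 4 higher and 11 lower calls, beside 17.0% and 65.5% of all tested genes. The size of the contrast can be read within each library, where no scaling between libraries enters. The mean log2 CPM of CENPE and CENPF minus the median log2 CPM of the 18 small genes was -0.81 and -0.80 in the RIP libraries, against 2.02 and 2.01 in the input libraries. CENPE and CENPF thus stood at 0.572 and 0.574 of the small genes' median fragments in RIP, against 4.06 and 4.04 times it in input. Taken as sums, the 18 small genes had 20.1 and 19.3 times the fragments of CENPE and CENPF in RIP, against 1.90 and 2.13 times in input. The large pair made up 1.92% and 2.06% of all fragments on the 41 genes in RIP, against 14.9% and 13.4% in input. The replicates of each group differed by far less than the groups did. No test is given for this contrast, because the genes were chosen with results of these libraries known.

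Per length, the mean log2 value of CENPE and CENPF lay below the small genes' median in all 4 libraries, and farther below it in RIP. On the log2 scale of the deposited FPKM, this difference was -3.17 and -3.12 in RIP, against -0.44 and -0.60 in input. CENPF alone lay above the small genes' median in both input libraries and below it in both RIP libraries, while CENPE lay below it in all 4. CENPF was at 3.80 and 3.94 FPKM in RIP, against 31.8 and 28.6 FPKM in input, and CENPE at 2.23 and 2.57 FPKM in RIP, against 9.09 and 9.44 FPKM in input. Per length, CENPF thus stood below the median of the 41 genes in RIP (21.3 FPKM) and above it in input (22.98 FPKM), while CENPE was below the median in both. The lengths of CENPE and CENPF were the same in all 4 libraries. Their change in FPKM therefore repeats the change in fragments and does not correct for a trend with length.

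**Figure D2:**
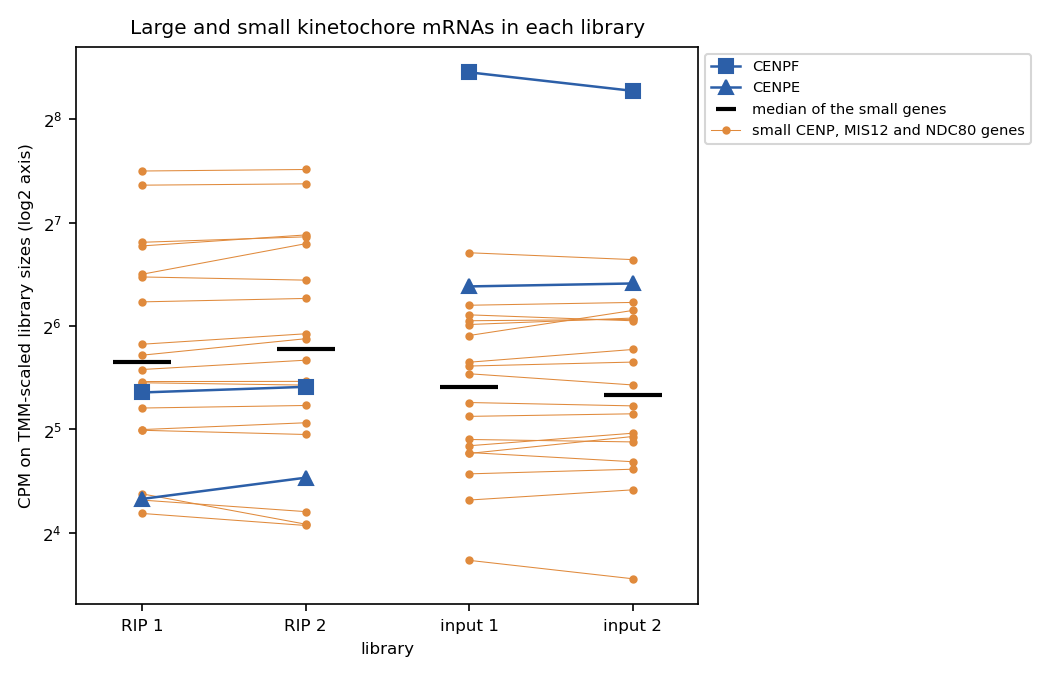
CPM of CENPF (squares), CENPE (triangles) and the 18 small CENP, MIS12 and NDC80 complex genes (circles) in each library, on a log2 axis; black bars mark the median of the small genes. CENPF stands above every small gene in both input libraries (351 and 310.1 CPM) and below the small genes' median in both RIP libraries (41.0 and 42.6 CPM).

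Fold change fell with transcript length among these genes as it did across the transcriptome. Effective length was read from the table as scaled fragments over FPKM and is given in units of the median tested gene. Spearman's rho between effective length and log2 fold change was -0.59 over the 41 genes, -0.54 over the 39 without CENPE and CENPF, and -0.60 over all 14555 tested genes. Genes share their libraries and are not independent replicates, so these values are descriptions. With all tested genes split into 10 bins by length, the median log2 fold change was 1.32 in the shortest bin and -1.13 in the longest. CENPF (3.76 median lengths), CENPE (3.13), CASC5 (2.76) and NSL1 (4.82) belong to that longest bin. Against its median, CENPF and CENPE were clearly lower, CASC5 close to it at -1.35, and NSL1 far above it at -0.02.

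The trend of each library with length was then taken out by offsets fitted over all genes. CENPF and CENPE were still lower, with length-corrected log2 fold changes of -1.70 (SE 0.062, edgeR adjusted p = 1.917e-13) and -0.84 (edgeR adjusted p = 9.278e-08). The other calls shifted: 14 of the 41 were then higher (beside 34.7% of all tested genes) and 21 lower (beside 35.6%), with a median of -0.17, beside -0.03 for all tested genes. All 13 genes that were lower before were lower after the correction. Among them CENPF was then the lowest, but NUF2 (-1.14), of the small genes, and SGOL1 (-0.93) lay below CENPE. Of the 17 that were higher before, 8 were still higher, 4 passed neither side and 5 were lower. The large pair minus the median of the small genes was at -1.27 after the correction, against -2.83 before.

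**Figure D3:**
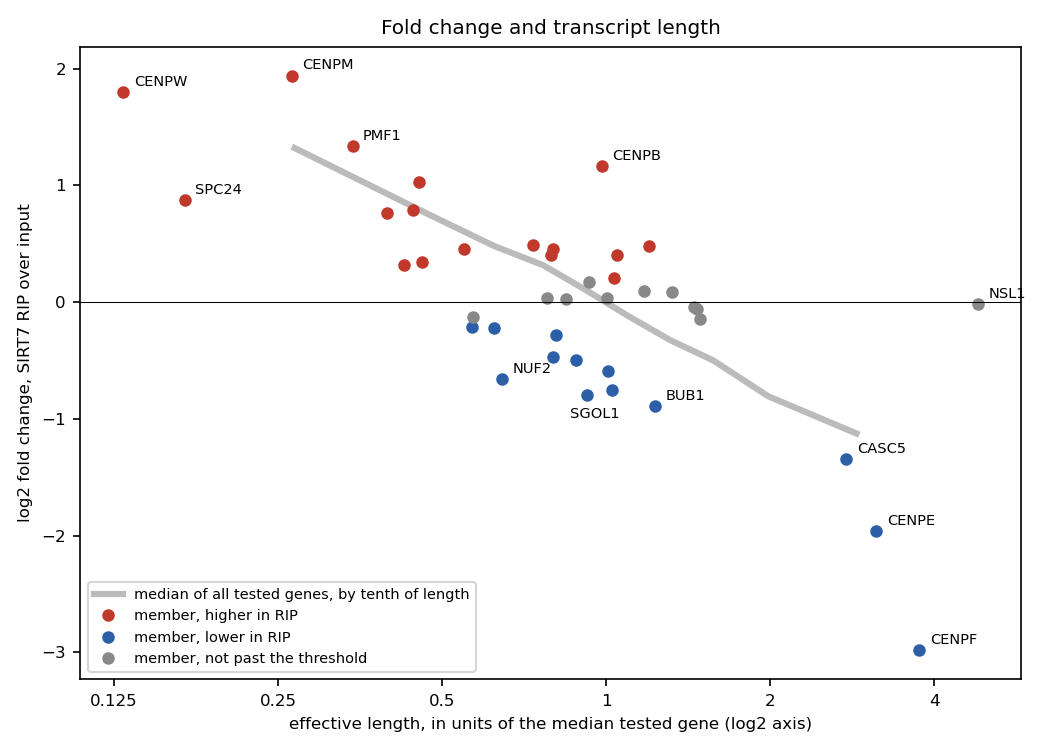
Log2 fold change, SIRT7 RIP over input, against effective length in units of the median tested gene on a log2 axis, for the 41 genes (points, coloured by call); the grey line joins the medians of 10 length bins of all tested genes. The line lies at 1.32 in the shortest bin and -1.13 in the longest, with CENPF (-2.98) and CENPE (-1.96) below its end and NSL1 (-0.02) above it.

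The genes of centromeric chromatin were higher or not past the threshold. CENPB, whose protein binds a short motif in alpha satellite DNA, had 237.0 and 231 CPM in RIP, against 97.1 and 112 CPM in input. That is 2.24-fold higher (edgeR adjusted p = 1.246e-09, log2 fold change 1.16, SE 0.077). The groups did not overlap, and the length-corrected log2 fold change of 1.12 was nearly as large. CENPA, the histone variant that marks the centromere, had 56.7 and 60.8 CPM in RIP, against 27.2 and 30.5 CPM in input, 2.03-fold higher (edgeR adjusted p = 2.436e-08). Its transcript is short, and after length correction the log2 fold change was 0.21 (edgeR adjusted p = 0.01855). CENPC1, the older symbol of CENPC, whose protein links CENP-A nucleosomes to the MIS12 complex, had 28.4 and 29.9 CPM in RIP, against 27.7 and 26.8 CPM in input (log2 fold change 0.10, edgeR adjusted p = 0.3259).

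In the inner network, 6 of 11 genes (54.5%) were higher in RIP, 3 (27.3%) were lower and 2 passed neither side. The shares over all tested genes were 38.0% higher and 39.7% lower. After length correction 4 of the 11 were higher and 4 lower, beside 34.7% and 35.6% of all tested genes. The highest was CENPM, which codes for a small protein that is folded like a GTPase. It had 109.6 and 118.0 CPM in RIP, against 29.9 and 29.4 CPM in input. These groups lay wide apart, 3.83-fold (edgeR adjusted p = 5.31e-12, log2 fold change 1.94, SE 0.078). The length-corrected log2 fold change was 0.67. CENPW, which codes for a histone-fold partner of CENP-T, had 181 and 183 CPM in RIP, against 50.2 and 54.7 CPM in input, 3.47-fold higher (edgeR adjusted p = 6.422e-12). It has the shortest transcript of the set (0.13 median lengths) and the highest FPKM in both groups. After length correction its log2 fold change was 0.05 (edgeR adjusted p = 0.4817). The lowest of the network was CENPI, at 32.4 and 31.6 CPM in RIP, against 45.9 and 44.3 CPM in input (log2 fold change -0.50, edgeR adjusted p = 4.523e-05), without overlap and with a length-corrected value of -0.68.

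The other genes of the network lay between these values. CENPT, whose protein pairs with CENP-W, was 1.37-fold higher. CENPH and CENPK code for subunits of one subcomplex with CENP-I. CENPH was 1.73-fold higher, and CENPK had a log2 fold change of -0.21 (edgeR adjusted p = 0.02962). The call for CENPK was lost without RIP library 1 (edgeR adjusted p = 0.2081), RIP library 2 (0.07908), input library 1 (0.06143) or input library 2 (0.05237), and with DESeq2 (adjusted p = 0.1316). CENPL, whose protein pairs with CENP-N, had a log2 fold change of -0.47, and CENPN one of 0.40. CENPO, CENPP and CENPQ code for subunits of a further subcomplex. CENPP was 1.40-fold higher at the low level of 4.89 to 5.31 FPKM in RIP, against 3.41 to 3.79 FPKM in input. CENPO (log2 fold change -0.05) and CENPQ (-0.13) passed neither side, and their groups overlapped. CENPL, CENPO, CENPP and CENPT overlap other genes of the table, and the strand setting of the counting is not given in the sources used here, so reads of these neighbours may be part of their values.

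CENPN differed from the other genes in a second measure. Its effective length in the table was 0.619 and 0.637 median lengths in the RIP libraries, against 0.971 and 0.949 in the input libraries, a log2 shift of -0.61. Effective length in such a table follows the estimated share of each isoform, and isoforms were not analysed here. The FPKM of CENPN was 50.1 and 47.5 in RIP, against 23.3 and 24.5 in input, a wider gap than the 1.32-fold seen in fragments. CENPN was 1 of 41 genes (2.44%) with a shift beyond 0.2, beside 2.30% of the 12165 tested genes with a mean of at least 50 fragments. SGOL1 (-0.20) and BUB3 (-0.16) came next.

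The genes of the NDC80 complex, a rod whose 4 subunits are present in equal number, split. NDC80, SPC24 and SPC25 were higher in RIP and NUF2 was lower. SPC24, of the end of the rod that faces the chromosome, had 44.1 and 44.2 CPM in RIP, against 23.8 and 24.5 CPM in input. It was 1.83-fold higher without overlap (edgeR adjusted p = 1.151e-07). NUF2, the direct partner of NDC80 at the microtubule end, had 31.8 and 30.9 CPM in RIP, against 49.0 and 50.3 CPM in input (log2 fold change -0.66, SE 0.081, edgeR adjusted p = 1.909e-06). NDC80 itself was 1.40-fold higher and SPC25, which overlaps NOSTRIN in the table, 1.24-fold. Per length, SPC24 stood at 5.31 and 5.46 times the FPKM of NUF2 in RIP, against 1.85 and 1.86 times in input. NDC80 stood at 1.32 and 1.45 times the FPKM of NUF2 in RIP, against 0.625 and 0.619 times in input, so the order of these partners was turned round. After length correction no gene of the complex was higher: SPC24 was at -0.70, SPC25 at -0.55 and NUF2 at -1.14, all past the threshold on the lower side, and NDC80 at 0.12 passed neither side. These FPKM ratios, and those of the next paragraphs, were chosen after their values were seen and are descriptions. The lengths of these genes were nearly the same in all libraries. The change of a ratio from input to RIP therefore repeats the change in fragments and is not corrected for the length trend.

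In the MIS12 complex, the bridge from inner to outer kinetochore, 1 gene was higher, 1 lower and 2 past neither side. The shares over all tested genes were 38.0% higher and 39.7% lower. PMF1 had 164.7 and 166 CPM in RIP, against 60.1 and 71.1 CPM in input, 2.52-fold higher (log2 fold change 1.34, SE 0.082, edgeR adjusted p = 4.831e-10). Its transcript is short, and the length-corrected log2 fold change was 0.27 (edgeR adjusted p = 0.00122). A read-through gene, PMF1-BGLAP, shares its sequence and had 128 and 177 fragments in RIP, against 63 and 68 in input, so the split of reads between them is uncertain. MIS12 had 52.7 and 58.8 CPM in RIP, against 69.0 and 66.3 CPM in input (log2 fold change -0.28, edgeR adjusted p = 0.004459). That call was lost without RIP library 1 (edgeR adjusted p = 0.1253), and MIS12 overlaps DERL2 in the table. Per length, PMF1 stood at 7.36 and 6.78 times MIS12 in RIP, against 2.05 and 2.54 times in input. DSN1 (log2 fold change 0.04) and NSL1 (-0.02) passed neither side. NSL1 had 90.6 and 111 CPM in RIP, against 104.7 and 99.99 CPM in input, with groups that overlapped. Its effective length of 4.82 median lengths is the longest of the set, and only with that length taken into account was it called higher, at 1.46 (edgeR adjusted p = 2.206e-11).

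The KNL1 complex holds a very long and a short transcript. CASC5, the older symbol of KNL1, codes for the scaffold that docks the BUB proteins. It had 27.96 and 28.8 CPM in RIP, against 75.2 and 69.3 CPM in input (log2 fold change -1.35, SE 0.082, edgeR adjusted p = 4.743e-10). ZWINT, which codes for its small partner, had 267 and 266 CPM in RIP, against 197 and 191 CPM in input, 1.37-fold higher (edgeR adjusted p = 1.32e-05). Neither gene's groups overlapped. Per length, ZWINT stood at 48.2 and 46.5 times CASC5 in RIP, against 13.2 and 13.9 times in input. With length taken into account both were lower, at -0.32 for CASC5 and -0.18 for ZWINT.

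**Figure D4:**
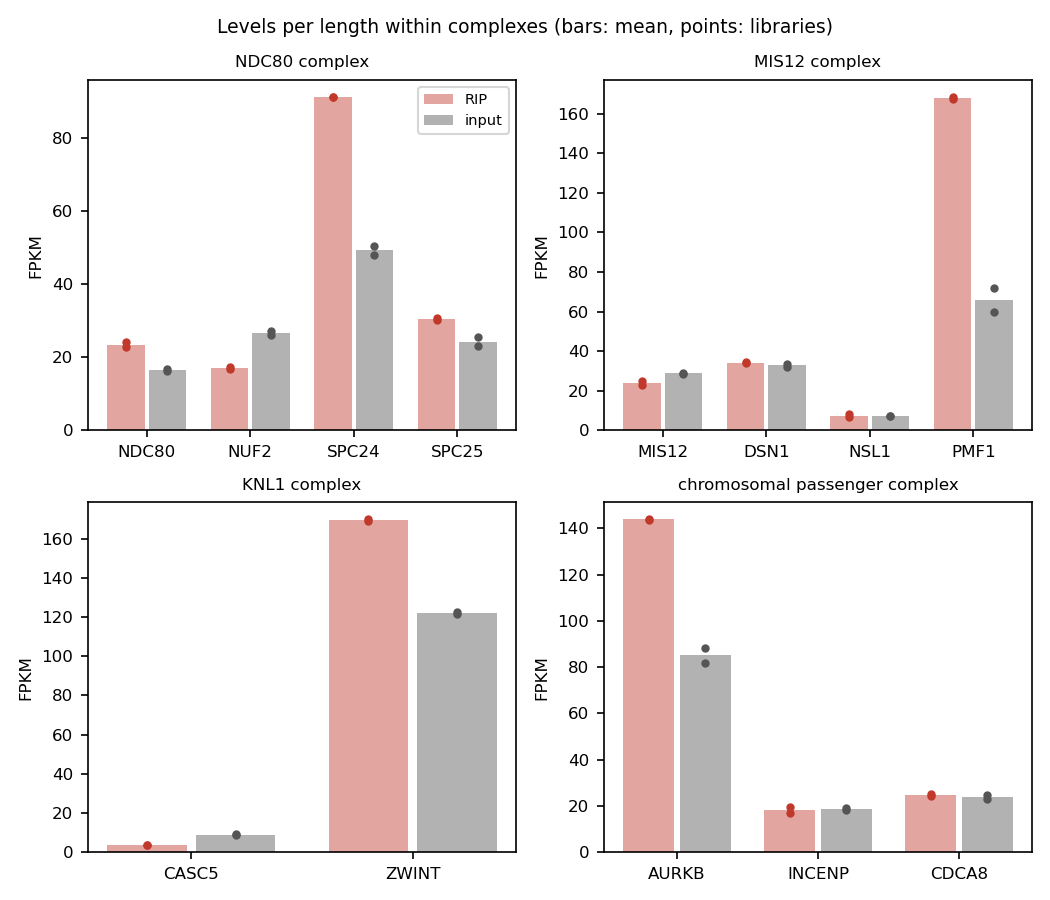
FPKM of the genes of the NDC80, MIS12, KNL1 and chromosomal passenger complexes, on linear axes from 0; bars are group means, RIP left of input, and points are the libraries. NDC80 lies above NUF2 in both RIP libraries and below it in both input libraries, and the gaps from ZWINT to CASC5 and from AURKB to INCENP are wider in RIP.

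Of the 7 spindle checkpoint genes, 2 (28.6%) were higher in RIP, 3 (42.9%) lower and 2 past neither side. The shares over all tested genes were 38.0% higher and 39.7% lower. TTK, the kinase (MPS1) that starts the checkpoint signal, had 112 and 107 CPM in RIP, against 77.8 and 87.6 CPM in input. It was 1.33-fold higher without overlap (edgeR adjusted p = 1.619e-04), and its length-corrected value of 0.43 was about the same. BUB1, the kinase recruited by KNL1, had 62.6 and 64.2 CPM in RIP, against 116 and 119 CPM in input (log2 fold change -0.89, SE 0.070, edgeR adjusted p = 1.034e-08). It was the lowest of the checkpoint genes and its length-corrected value was -0.67. MAD2L1, whose product MAD2 binds CDC20, was 1.27-fold higher, yet at -0.46 after length correction. ZW10, which recruits dynein and MAD proteins, had a log2 fold change of -0.75 with and without length correction. BUB3, the partner of BUB1 and BUBR1, had a log2 fold change of -0.23 (edgeR adjusted p = 0.007376). That call was lost without RIP library 1 (edgeR adjusted p = 0.07643) or RIP library 2 (0.1173), and on the FPKM scale. BUB1B, which codes for BUBR1 (0.09), and MAD1L1, which codes for the MAD2 partner MAD1 (0.17), passed neither side.

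The chromosomal passenger complex corrects faulty attachments. Its kinase gene AURKB had 164.5 and 164.8 CPM in RIP, against 95.0 and 99.6 CPM in input, 1.69-fold higher (edgeR adjusted p = 5.318e-08). INCENP, which codes for its scaffold and activator, had 81.7 and 72.0 CPM in RIP, against 79.1 and 81.3 CPM in input (log2 fold change -0.06, edgeR adjusted p = 0.4758), with groups that overlapped. CDCA8, which codes for borealin, was at 0.02 and also overlapped. Per length, AURKB stood at 7.42 and 8.41 times INCENP in RIP, against 4.45 and 4.58 times in input. After length correction the order turned, with AURKB at -0.17 and INCENP at 0.35.

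The SKA complex tracks microtubule ends with NDC80. SKA2 had 98.4 and 98.3 CPM in RIP, against 81.0 and 89.8 CPM in input, 1.15-fold higher (edgeR adjusted p = 0.01964). That call was lost without RIP library 1 (edgeR adjusted p = 0.08907), RIP library 2 (0.08391) or input library 1 (0.1227). SKA3 had 16.5 and 15.9 CPM in RIP, against 24.5 and 24.5 CPM in input (log2 fold change -0.59, edgeR adjusted p = 3.63e-05), without overlap. SKA1, at 0.03, passed neither side. All 3 have effective lengths near the median gene, and their values moved by less than 0.03 with length correction. Of the shugoshins, which protect cohesin at the centromere, SGOL1 had 21.8 and 20.6 CPM in RIP, against 38.5 and 35.1 CPM in input (log2 fold change -0.80, SE 0.092, edgeR adjusted p = 9.198e-07). SGOL2 had 38.9 and 35.9 CPM in RIP, against 41.3 and 41.3 CPM in input (log2 fold change -0.14, edgeR adjusted p = 0.1243). Its groups did not overlap, but the difference missed the threshold.

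A further 38 genes of the same pathway, all of them tested, were looked up for comparison. They cover centromere loading, the anaphase-promoting complex, its activators and targets, and motors. Of these, 20 (52.6%) were higher in RIP and 17 (44.7%) lower. Their median on the log2 scale was 0.27. KNSTRN was the only gene past neither side. The background was 38.0% higher and 39.7% lower calls among all tested genes, and a median of -0.03. The length-corrected fit called 15 of the 38 higher and 14 lower, beside 34.7% and 35.6% of all tested genes. Their median there was 0.0094. The 3 highest were STRA13, ANAPC11 and CENPV. STRA13, the older symbol of CENPX, codes for a small histone-fold protein and had 418 and 413 CPM in RIP, against 68.8 and 76.2 CPM in input, 5.73-fold higher (edgeR adjusted p = 8.759e-13). ANAPC11, which codes for the RING subunit of the anaphase-promoting complex, had 374 and 364 CPM in RIP, against 63.4 and 76.7 CPM in input, 5.27-fold higher. CENPV had 351 and 342 CPM in RIP, against 94.3 and 104 CPM in input, 3.49-fold higher. None of these groups overlapped. All 3 were still higher after length correction, at 1.09, 1.07 and 0.78.

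The 3 lowest of these 38 genes were KNTC1, ANAPC1 and SPAG5. KNTC1, which codes for the large ROD subunit of the complex that holds ZW10, had 33.7 and 32.4 CPM in RIP, against 95.0 and 93.5 CPM in input (log2 fold change -1.51, SE 0.076, edgeR adjusted p = 5.189e-11). ANAPC1, a large scaffold subunit of the anaphase-promoting complex, had 53.9 and 59.4 CPM in RIP, against 146 and 140.1 CPM in input (log2 fold change -1.34). SPAG5, which codes for the spindle protein astrin, had 42.0 and 43.9 CPM in RIP, against 95.6 and 90.6 CPM in input (log2 fold change -1.12). The groups of all 3 lay apart. After length correction they were at -0.56, -0.29 and -0.80. Of the 12 subunit genes of the anaphase-promoting complex in this list, 6 were higher and 6 lower. The shares over all tested genes were 38.0% and 39.7%. The length-corrected fit called 2 of the 12 higher and 5 lower, beside 34.7% and 35.6% of all tested genes. The list leaves out the subunit genes ANAPC15 (log2 fold change 1.27) and ANAPC16 (0.92), which were also higher. With ZW10 and KNTC1, ZWILCH (log2 fold change -0.47) completes the RZZ complex, and all 3 of its genes were lower, also after length correction.

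**Figure D5:**
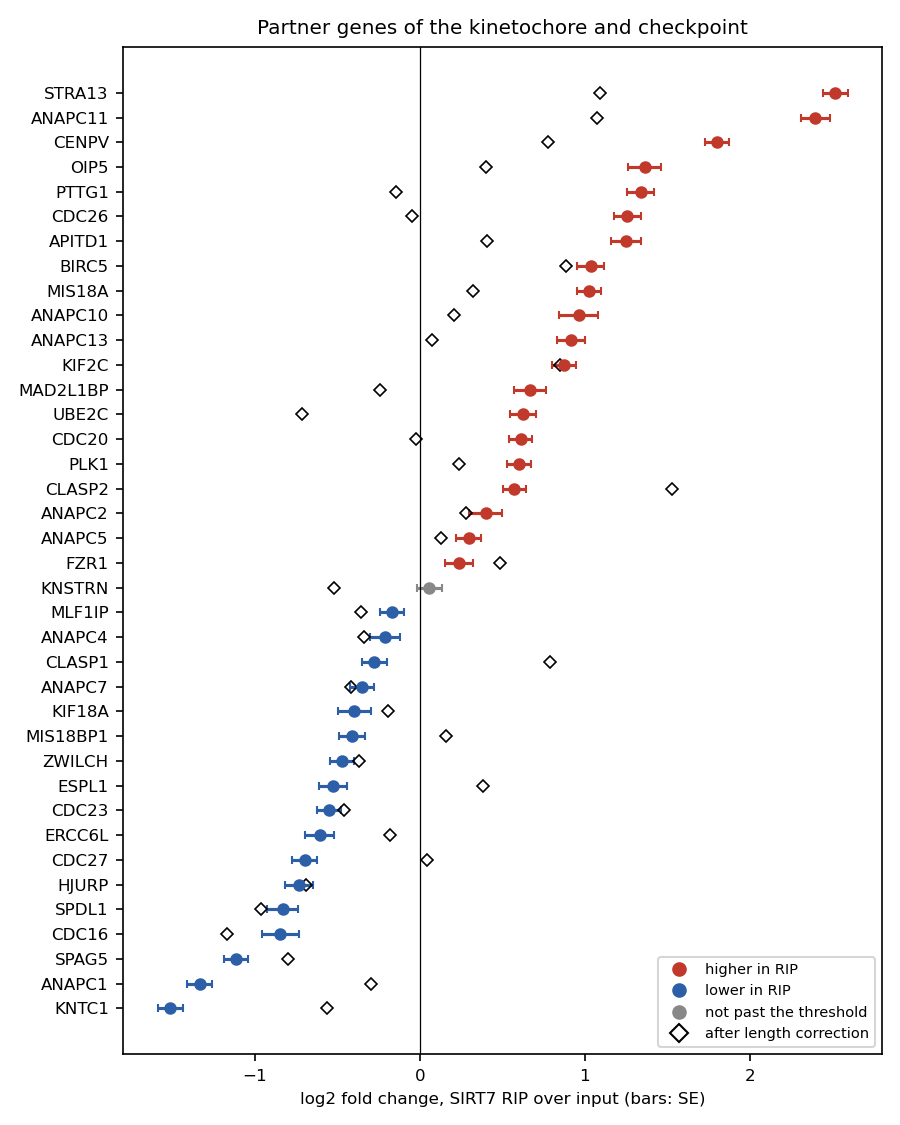
Log2 fold change, SIRT7 RIP over input, of the 38 further pathway genes, with the SE as bars, coloured by call, and open diamonds for the length-corrected values. STRA13 (2.52), ANAPC11 and CENPV (1.80) are highest and KNTC1 (-1.51), ANAPC1 (-1.34) and SPAG5 (-1.12) lowest.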

How the data were processed

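RNA of 2 SIRT7 RIP and 2 input libraries was sequenced. The reads had been passed through TopHat2 2.0.13, Cuffdiff 2.2.1, Bowtie2 2.2.6 and cutadapt 1.5 on build hg19, per the submitters' processing notes, which name the tools without an order. The annotation, like the strand setting, is not given in the sources used here. The deposited table, per the file headers, gives estimated fragment counts, the same fragments scaled by 1 factor per library (signal) and FPKM for each gene and library. The authors' estimated counts were whole in 97.9% of values and were rounded. The table numbers replicates from 0 and the titles from 1, so their match rests on that order. It gave a failed estimate for 12 entries in 7 genes, none of them described here.

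Genes were filtered with filterByExpr (minimum count 10, total 15), scaled by TMM and tested with the quasi-likelihood test of edgeR 4.0.16 in R 4.3.3 over 14555 genes, with Benjamini-Hochberg adjustment at 0.05. CPM use TMM-scaled library sizes. Effective length is scaled fragments over FPKM. For the length correction, a loess curve (span 0.3) of each library against length became an offset. Depth was 17310755 to 25998038 fragments, the common dispersion gave a CV of 5.68% between replicates, and replicates differed beyond sampling noise in both groups (mean chi-square of 3.40 a gene in RIP and 6.17 in input). With 2 against 2 libraries a permutation test of a single value cannot go below p = 0.333, so none was used. Same-numbered libraries showed almost no shared deviation (r = 0.02 over 14555 genes). With 2 libraries a group this cannot tell whether they came from the same culture. The labels give no batch.

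Alternatives were DESeq2 1.42.0, library totals, no filter, the length offset, limma 3.58.1 on log2(FPKM + 1) and log2(FPKM + 0.1), a replicate block, the 10 most abundant genes left out, and each library left out. The test was also run on simulated counts with changes balanced up and down. Those settings leave the scale between RIP and input unexamined, and nothing is concluded from them. The members and lists were chosen with earlier results of these data known. By rule, CENPE, CENPF and the highest and lowest gene of each complex get values in every library, as do the 3 highest and 3 lowest further pathway genes; values of CENPA, CENPN, CENPW and NSL1 in every library were added after they were seen, as was the naming of ZWILCH and KNSTRN.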

Additional observations from a re-analysis of the deposited data

How the results depend on the processing

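Of the 41 genes, 17 were higher and 13 lower in RIP by edgeR with TMM, beside 38.0% and 39.7% of all tested genes. With library totals these counts were 5 and 32, beside 17.0% and 65.5% of all tested genes. The further pathway genes then had 10 higher calls in place of 20, and the calls of CENPH, CENPP, SPC24 and AURKB were lost. With the length offset 21 of the 41 were lower, beside 35.6% of all tested genes. The fold change of CENPE and CENPF minus that of the small genes, -2.83 on the log2 scale, was -1.27 with the length offset, -2.50 on log2(FPKM + 1), where the pseudocount understates low genes, and -2.90 to -2.76 with a library left out. Leaving out a library gave 16 to 17 higher and 10 to 12 lower genes. With the replicate block 17 were higher and 13 lower, the difference was -2.83 and no call among the 41 changed. Whether same-numbered libraries belong together is not stated in the labels. Other alternatives gave 17 or 18 higher and 12 or 13 lower.

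With library totals, which move all genes down, the sign turned for CENPC1 (-0.63), CENPN (-0.33), CENPP (-0.25), CENPT (-0.27), NDC80 (-0.24), SPC25 (-0.41), DSN1 (-0.69), ZWINT (-0.28), BUB1B (-0.64), MAD1L1 (-0.56), MAD2L1 (-0.39), TTK (-0.32), CDCA8 (-0.71), SKA1 (-0.70) and SKA2 (-0.53). With the length offset it turned for CENPH (-0.042), CENPO (0.35), SPC24 (-0.70), SPC25 (-0.55), DSN1 (-0.27), NSL1 (1.46), ZWINT (-0.18), MAD2L1 (-0.46), AURKB (-0.17), INCENP (0.35), CDCA8 (-0.20) and SGOL2 (0.28). With a library left out it turned for genes that had passed neither side. Without input library 1 this was CENPO (0.0040), NSL1 (0.0078) and CDCA8 (-0.019), without RIP library 1 NSL1 (0.13), and without RIP library 2 CENPQ (0.018), INCENP (0.034) and SKA1 (-0.065). Over the 4 libraries left out in turn CENPO ranged from -0.081 to 0.0040, CENPQ from -0.28 to 0.018, NSL1 from -0.17 to 0.13, INCENP from -0.15 to 0.034, CDCA8 from -0.019 to 0.081 and SKA1 from -0.065 to 0.14. The cause of these changes was not tested. With 2 libraries a group and no pull-down from untagged cells analysed here, binding to SIRT7 and to the gel cannot be told apart.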
